A study of Tupaia belangeri with 15 samples.

Results

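The genes of the alpha-1 subunits of voltage-gated calcium channels, 10 in number (CACNA1A, CACNA1B, CACNA1C, CACNA1D, CACNA1E, CACNA1F, CACNA1G, CACNA1H, CACNA1I and CACNA1S), were followed in single-nucleus RNA libraries of tree shrew (TS, Tupaia belangeri) retinas. They were chosen by gene name, and each of the 10 is listed under its exact name among the 83605 features of the files. The retinas numbered 15, with 5 each from infant, mature and senile TS, and none of the animals is labelled as treated or genetically altered. Infant animals were in the second or the third month of life, mature animals in the third year and senile animals in the eighth year. Infant and mature TS came from the animal centre of a university and senile TS were purchased elsewhere, so that stage and source cannot be told apart in any comparison with senile retinas.

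The alpha-1 subunit forms the pore and the voltage sensor of a calcium channel, and auxiliary alpha-2-delta and beta subunits carry it to the membrane and tune its gating. L-type channels (CACNA1C, CACNA1D, CACNA1F, CACNA1S) and P/Q-, N- and R-type channels (CACNA1A, CACNA1B, CACNA1E) need a stronger depolarization than T-type channels (CACNA1G, CACNA1H, CACNA1I), which open near rest. In the retina, photoreceptors and bipolar cells (BCs) release glutamate continuously at ribbon synapses through L-type channels, and loss of CACNA1F causes congenital stationary night blindness.

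The libraries held 13429873 to 58734300 unique molecular identifiers (UMIs) in 4269 to 9856 barcodes, with a median of 1461 to 5611 UMIs per barcode. Of the 120437 barcodes, 119765 passed the limits on genes and mitochondrial RNA, and 73622 of these were assigned to 9 classes by marker genes, among which no calcium channel gene was used. The classes comprised 15208 cones, 882 rods, 26474 BCs, 867 horizontal cells (HCs), 15671 amacrine cells (ACs), 5600 retinal ganglion cells (RGCs), 7142 Müller cells, 1119 astrocytes and 659 microglia. The names stand for nuclei like these cells, since the files carry no annotation. Some defining markers had 0 UMIs in all libraries (CNGB3 of cones, GAD2 and SLC32A1 of ACs), and 51.6% of the ACs lay close to the limit of their class. Pairs of libraries shared 4 to 30 barcodes, at most 0.422% of the smaller library.

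A level is the sum of a gene's UMIs over a class in a retina per 1000000 UMIs of that class (CPM), for classes with at least 10 nuclei in that retina, which left 14 retinas for rods and microglia and 15 for the other classes. It is not corrected for gene length, so that levels are compared between classes and not between genes. Fewer transcripts per nucleus and a smaller share of expressing nuclei within a class cannot be told apart in such sums. The labels give Cell Ranger 5.0.1 for 7 libraries (Infancy 1 to 3, Mature 1 and 2, Senile 1 and 2) and 7.0.1 for the other 8. Senile 3 stood apart, since in several classes its T-type levels lay with the libraries of the other processing label, as described below.

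All members together took 1362 of every 1000000 UMIs in the libraries. The summed level of the family was highest in HCs, with 2189 ± 407 CPM (SD, n = 15), and lowest in rods, with 315 ± 89.7 CPM (SD, n = 14). CACNA1C took 82.6% of the family's UMIs in HCs, CACNA1D took 48.6% in cones and 38.6% in ACs, and CACNA1A took 39.6% in RGCs and 55.5% in microglia, as means over retinas. The share in microglia ranged from 23.3 to 89.5%. Such shares are not corrected for gene length and are read between classes, not as a ranking of genes. The make-up of the family thus differed from class to class, and each class was compared with each other class within the retinas by a 2-sided exact sign-flip test, with p-values adjusted over all pairs of classes and all 22838 features that had at least as many UMIs as the least counted member. Of the 360 tests of members 262 passed an adjusted p of 0.05, where 48% of the tests over these features passed, so that a difference between classes is common in these data. For 8 members the class with the highest mean was above each of the 8 other classes by this test. CACNA1S is among them, but its counts in most other classes were too few to show a level, as described below. The exceptions were CACNA1G and CACNA1I, each of which passed against 7 of 8. The highest class of each member was picked from these same values, and the share of all features that pass in this way is not given. These counts are thus not read as a result about the members.

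**Figure D1:**
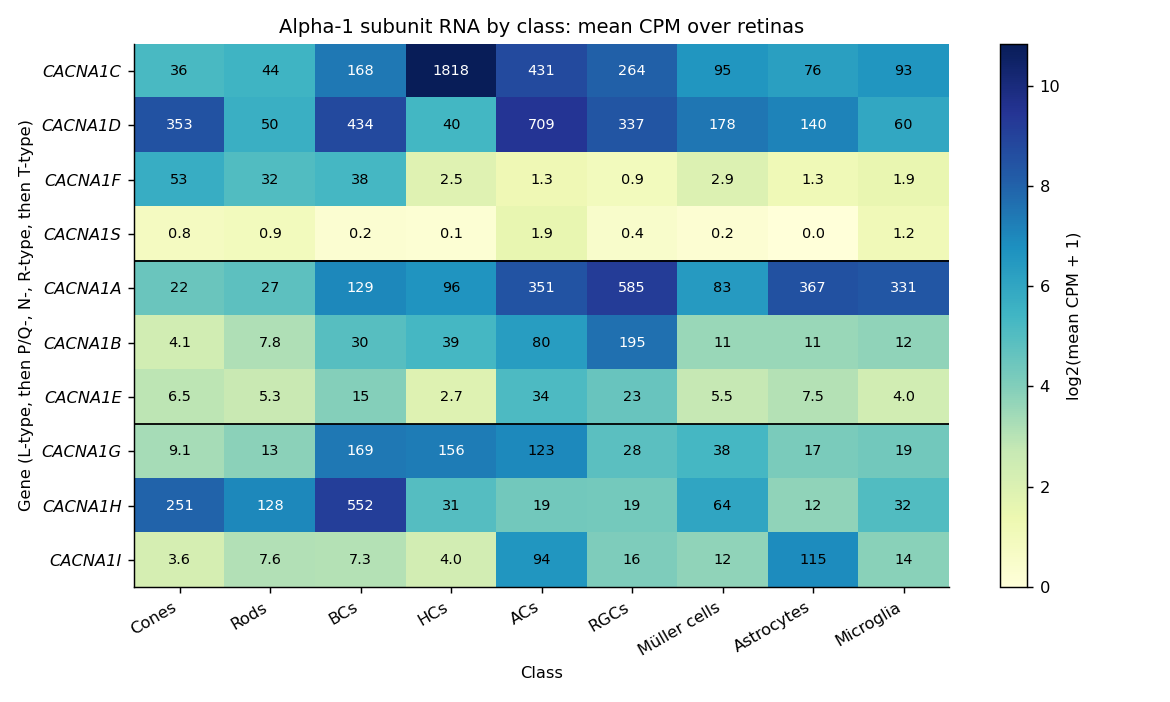
Mean level (CPM, printed in each cell) of the 10 alpha-1 subunit genes (rows) in 9 classes (columns), with colour on the scale of log2(mean CPM + 1); n = 15 retinas, or 14 for rods and microglia. The darkest cells are CACNA1C in HCs (1818 CPM) and CACNA1D in ACs (709 CPM).

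Among L-type genes, CACNA1C (TSDBGID.23551), which encodes the channel of heart and smooth muscle and of many neurons, was highest in HCs. Its level there was 1355 CPM in the lowest retina, 1598 in the median and 2641 in the highest. ACs followed with 279, 428 and 593 CPM, so that the lowest HC value was above the highest AC value. The difference was 2.07 ± 0.22 on the log2 scale (SD, n = 15; higher in 15 of 15 retinas; exact sign-flip test, adjusted p = 0.000515). RGCs had a median of 251 CPM and BCs of 160 CPM, and the steps from ACs to RGCs, from RGCs to BCs and from BCs to Müller cells each passed the test. Cones were lowest with a median of 29.7 CPM and did not differ from rods (adjusted p = 0.823, exact sign-flip test). In HCs the summed AC markers reached 740 CPM over all retinas, against 1526 CPM for HC markers, and their part in the result was not tested.

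CACNA1D (TSDBGID.16735), an L-type channel that opens at less depolarized potentials and serves the ribbon synapses of hair cells, had another order. ACs were highest, with 592 CPM in the lowest retina, 706 in the median and 871 in the highest. BCs had 330, 418 and 560 CPM, and ACs were above BCs in 15 of 15 retinas (log2 difference 0.71 ± 0.11, SD; exact sign-flip test, adjusted p = 0.000515). Cones had a median of 351 CPM and RGCs of 347 CPM, and these neighbours did not differ beyond their spread (log2 difference 0.07 ± 0.13, SD, n = 15; adjusted p = 0.104, exact sign-flip test). Cones exceeded rods in 14 of 14 retinas, by 3.10 ± 1.10 on the log2 scale (SD; adjusted p = 0.000633, exact sign-flip test). HCs, the class with the most CACNA1C, had the lowest median for CACNA1D, at 23.3 CPM. That median is 2 UMIs in Mature 2, where 3 UMIs would give 35 CPM. The mean in HCs was 18.5 ± 30.6 CPM in libraries labelled 5.0.1 and 59.3 ± 43.8 CPM in those labelled 7.0.1 (SD). The step from HCs to rods missed the threshold (adjusted p = 0.0785, exact sign-flip test).

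CACNA1F (TSDBGID.26453), the channel of photoreceptor terminals, was found mainly in cones, BCs and rods. Its levels were 25.2, 53.3 and 81.3 CPM in cones (lowest, median and highest retina), 25.5, 37.9 and 56.9 CPM in BCs and 0, 25.7 and 76.4 CPM in rods. Cones were above BCs in 13 of 15 retinas, by 0.43 ± 0.26 on the log2 scale (SD; exact sign-flip test, adjusted p = 0.00105), and BCs and rods did not differ beyond their spread (adjusted p = 0.151). Medians in the 6 other classes were 2.77 CPM or less. Rods rest on only 80 UMIs of this gene. A numbered copy, CACNA1Fli1 (TSDBGID.26672), held more UMIs than the named gene (18710 against 9307), with medians of 125 CPM in cones, 81.8 in rods and 72.2 in BCs. Reads could be split between such copies, so the level of either feature is uncertain, but both were high in the same 3 classes.

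CACNA1S (TSDBGID.10685), the channel of skeletal muscle, had 387 UMIs in all libraries. The median level in ACs was 1.54 CPM from 113 UMIs, and no other class had a median above 0.481 CPM. ACs passed the test against the 8 other classes, but apart from ACs and cones no class had more than 1 retina with over 3 UMIs, so that a level there was not detectable at this depth. The test thus cannot tell whether ACs hold more CACNA1S than those classes.

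**Figure D2:**
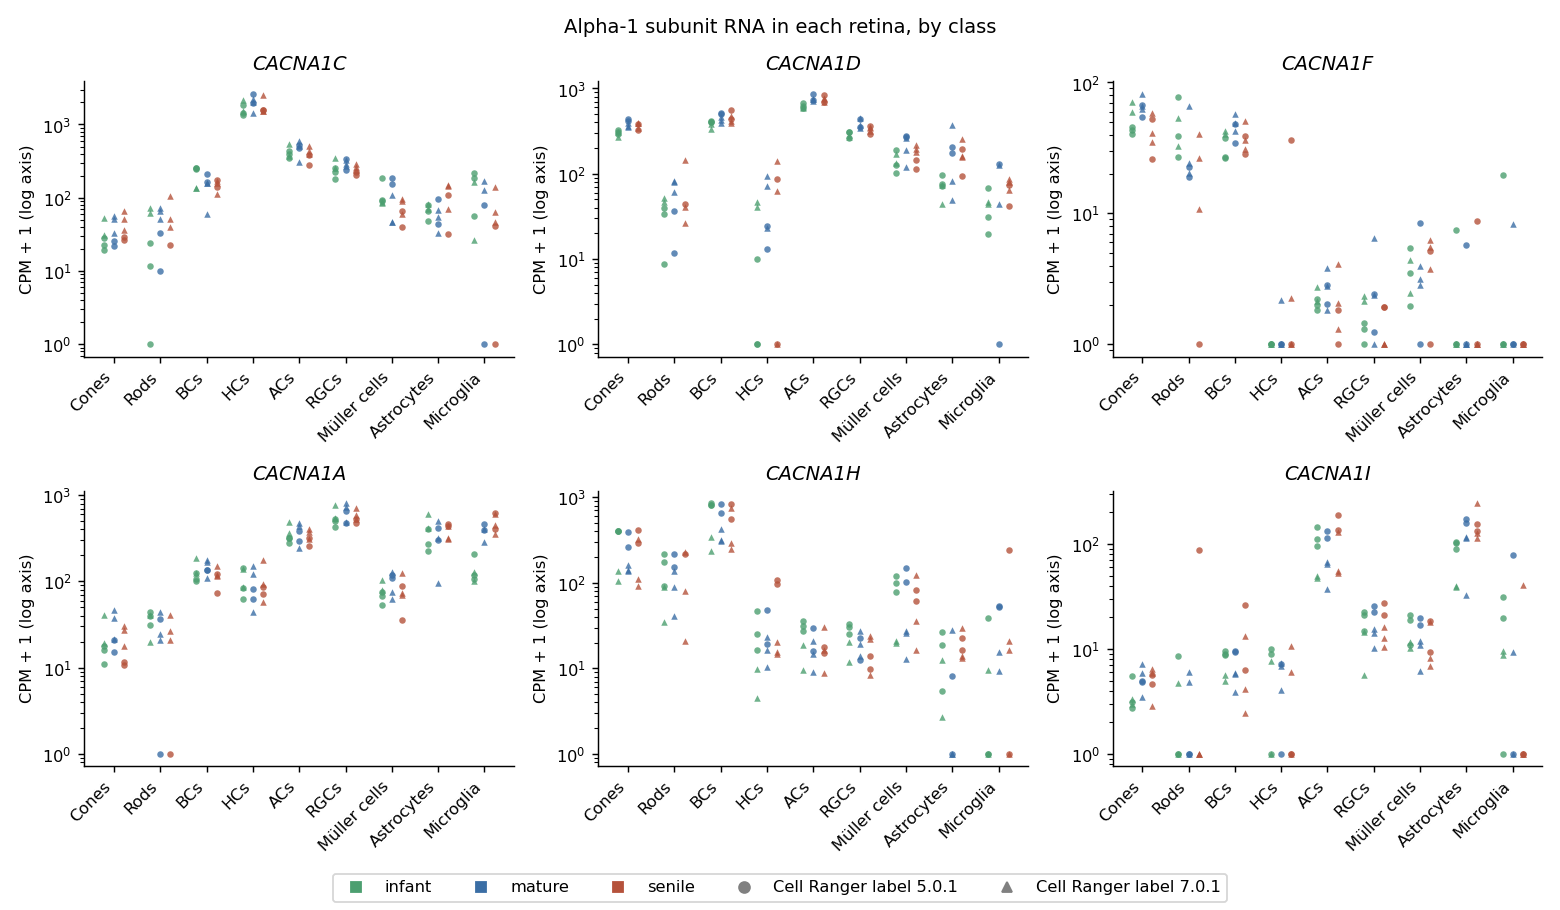
Level of 6 alpha-1 subunit genes in every retina (points; CPM + 1 on a log axis) by class, coloured by stage, with circles for libraries labelled Cell Ranger 5.0.1 and triangles for 7.0.1. CACNA1C peaked in HCs (1355 to 2641 CPM), where CACNA1D had its lowest median (23.3 CPM, from 2 UMIs in Mature 2).

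Among the channels of conventional synapses, CACNA1A (TSDBGID.18009), the P/Q-type pore, was highest in RGCs with 426, 533 and 809 CPM in the lowest, median and highest retina. Astrocytes (median 408 CPM), ACs (321 CPM) and microglia (372 CPM) came next and showed no difference as neighbours in the order with all stages together (adjusted p = 1 and 0.432, exact sign-flip tests). For microglia this joins unlike stages, since the mean log2 difference of microglia from ACs was -1.44 in infant and 0.53 in senile retinas. RGCs were above ACs in 15 of 15 retinas, by 0.74 ± 0.11 on the log2 scale (SD; adjusted p = 0.000515, exact sign-flip test). Both kinds of photoreceptors were low, with medians of 18.5 CPM in cones and 27.9 CPM in rods. Of the glia, Müller cells had a median of 74.7 CPM and lay below astrocytes in 15 of 15 retinas, by 2.10 ± 0.72 on the log2 scale (SD; adjusted p = 0.000515, exact sign-flip test). In RGCs the summed BC markers were at 1584 CPM and the summed AC markers at 433 CPM, against 1975 CPM for RGC markers. In astrocytes the summed RGC markers were at 222 CPM and the summed AC markers at 208 CPM, against 5820 CPM for astrocyte markers. The part of these markers' cells in the CACNA1A levels was not tested.

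An antisense feature within CACNA1A, CACNA1A-AS-2, held 17670 UMIs. Whether the counting kept every read on its strand is not given in the sources used here, so part of the CACNA1A reads may belong to it or the reverse.

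CACNA1B (TSDBGID.13243), the N-type pore, was highest in inner neurons. RGCs had 169, 197 and 213 CPM and ACs 63.2, 79.6 and 103 CPM in the lowest, median and highest retina, with no overlap. The difference was 1.28 ± 0.22 on the log2 scale (SD, n = 15; 15 of 15 retinas; adjusted p = 0.000515, exact sign-flip test). BCs (median 28.3 CPM) and HCs (37.5 CPM) did not differ beyond their spread (adjusted p = 0.716, exact sign-flip test), and cones were lowest with 3.84 CPM.

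CACNA1E (TSDBGID.10515), the R-type pore, was the least counted of these with 9152 UMIs. ACs were highest, with 25.7, 31.6 and 55.5 CPM, followed by RGCs with 12.8, 21.7 and 33.4 CPM. ACs were above RGCs in 14 of 15 retinas, by 0.60 ± 0.34 on the log2 scale (SD; adjusted p = 0.00091, exact sign-flip test). RGCs were in turn above BCs in 15 of 15 retinas (median 15.0 CPM in BCs; adjusted p = 0.000515).

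Of the T-type genes, CACNA1G and CACNA1H had their highest mean in BCs, and CACNA1I in astrocytes. CACNA1H (TSDBGID.13997) was highest in BCs, cones and rods. Its levels were 232, 563 and 854 CPM in BCs, 91.9, 262 and 414 CPM in cones and 19.7, 114 and 228 CPM in rods. These ranges are wide, and the retinas at the low end were mostly those labelled 7.0.1. Within retinas the order was steadier: BCs were above cones in 15 of 15 retinas by 1.18 ± 0.16 on the log2 scale (SD; adjusted p = 0.000515), and cones above rods in 14 of 14 (adjusted p = 0.000633, exact sign-flip tests). Müller cells came next with a mean of 63.7 CPM, and rods were above them in 13 of 14 retinas. The mean in Müller cells was 97.2 CPM in libraries labelled 5.0.1 and 34.4 CPM in those labelled 7.0.1. ACs and RGCs had medians of only 16.9 and 19.5 CPM.

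CACNA1G (TSDBGID.9897) was shared by BCs, HCs and ACs, with medians of 171, 109 and 128 CPM. BCs were above ACs in 15 of 15 retinas by 0.59 ± 0.37 on the log2 scale (SD; adjusted p = 0.000515, exact sign-flip test), but not above HCs (0.35 ± 0.65, SD, n = 15; adjusted p = 0.0992). ACs were above the next class, Müller cells (median 35.1 CPM), in 15 of 15 retinas.

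CACNA1I (TSDBGID.24450) was highest in astrocytes, with 32.0, 114 and 245 CPM, and in ACs, with 36.2, 94.9 and 186 CPM. These classes did not differ beyond their spread (log2 difference 0.26 ± 0.60, SD, n = 15; adjusted p = 0.180, exact sign-flip test). Astrocytes were above Müller cells by 3.04 ± 0.92 on the log2 scale (SD; 15 of 15 retinas; adjusted p = 0.000515, exact sign-flip test), so that the glial classes were unlike for this gene as they were for CACNA1A. The median was 14.6 CPM in RGCs and under that in the 6 remaining classes.

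Subtypes were then compared within each retina. S-cones were cones with a UMI of the opsin gene OPN1SW, whatever their OPN1LW count, and L-cones those with OPN1LW and no OPN1SW (546 and 11814 nuclei). ON and OFF BCs were separated by the kainate receptor gene GRIK1 together with ON markers (11057 and 10909 nuclei). ACs were separated by a UMI of the cholinergic genes CHAT, SLC18A3 or SLC5A7, which mark starburst cells (2482 and 13189 nuclei). The latter are called CHAT-positive and CHAT-negative ACs. Over 10 members and 3 splits, 12 of 30 differences passed an adjusted p of 0.05 by the exact sign-flip test, where 20.2% of the tests over all 22838 features passed.

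In cones, CACNA1D was at 485 ± 83.6 CPM in S-cones and 345 ± 43.8 CPM in L-cones (SD, n = 14 and 15). It was higher in S-cones in 14 of 14 retinas, by 0.49 ± 0.18 on the log2 scale (SD; adjusted p = 0.00173, exact sign-flip test). CACNA1H was higher in S-cones in 14 of 14 retinas as well, by 0.35 ± 0.34 (SD; adjusted p = 0.00173, exact sign-flip test). CACNA1F, at 42.6 ± 16.8 CPM in S-cones and 53.8 ± 15.1 CPM in L-cones (SD), did not pass (difference -0.36 ± 0.50, SD, n = 14, adjusted p = 0.0742, exact sign-flip test). A cone with more UMIs is more likely to show a UMI of OPN1SW, also a stray one. The part of depth in these differences was not tested.

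OFF BCs exceeded ON BCs for 6 members. The largest difference was that of CACNA1C, with a mean of 280 ± 119 CPM in OFF BCs and 75.6 ± 26.0 CPM in ON BCs (SD, n = 15). OFF BCs were higher in 15 of 15 retinas, and ON minus OFF was -1.80 ± 0.84 on the log2 scale (SD; adjusted p = 0.00121, exact sign-flip test). CACNA1A (156 against 82.1 CPM) and CACNA1E (22.3 against 8.33 CPM) differed by -0.97 ± 0.40 and -1.29 ± 0.97, and CACNA1D, CACNA1G and CACNA1H by -0.40, -0.41 and -0.23, each with an adjusted p of 0.00404 or less in the exact sign-flip test. CACNA1F, with 41.0 ± 10.0 CPM in OFF BCs and 37.4 ± 8.94 CPM in ON BCs (SD), did not pass. The share of all features that passed in this split alone is not given, so the count of 6 is not read as a result. ON BCs had to show a UMI of an ON marker and OFF BCs did not, so that depth may differ between them. The part of depth in these differences was not tested.

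In ACs, CHAT-positive nuclei had more CACNA1A (470 ± 105 against 325 ± 68.5 CPM) and more CACNA1C (568 ± 114 against 401 ± 82.5 CPM; SD, n = 15). Both differences were seen in 15 of 15 retinas, at 0.53 ± 0.18 and 0.51 ± 0.20 on the log2 scale (SD; adjusted p = 0.00121 each, exact sign-flip tests). CACNA1D and CACNA1I were lower in 15 of 15 retinas, at -0.72 ± 0.13 and -1.15 ± 0.76 (SD; adjusted p = 0.00121 each, exact sign-flip tests). CACNA1E (28.3 against 35.8 CPM) and CACNA1S (1.26 against 2.06 CPM) did not pass, with adjusted p of 0.0563 and 0.0875 (exact sign-flip tests). A nucleus with more UMIs is more likely to show a UMI of these genes, and the part of depth in these differences was not tested.

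**Figure D3:**
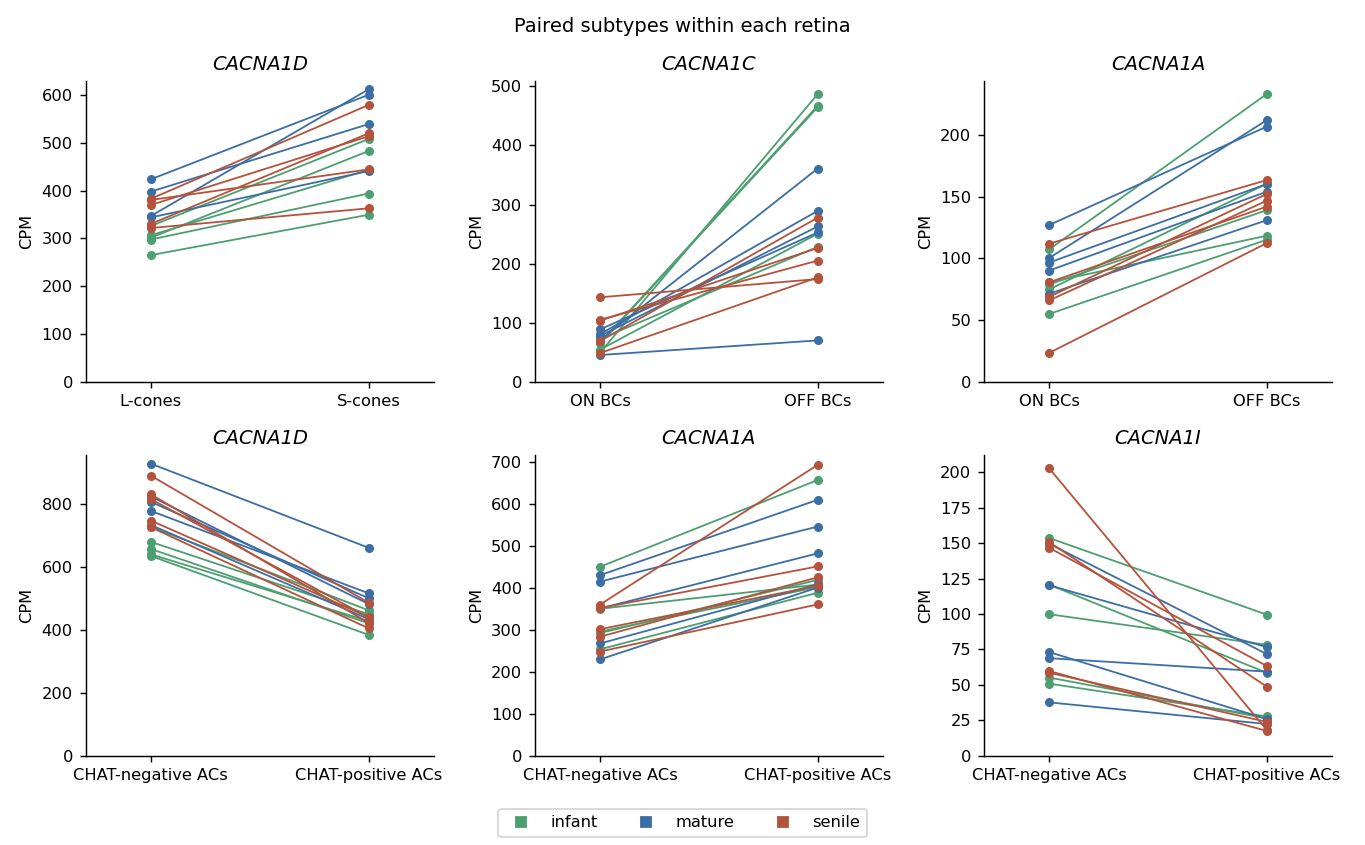
Level (CPM) of alpha-1 subunit genes in paired subtypes, each line being a retina, coloured by stage. All lines rise from L-cones to S-cones for CACNA1D and from ON to OFF BCs for CACNA1C and CACNA1A, and all lines fall from CHAT-negative to CHAT-positive ACs for CACNA1D and CACNA1I.

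Stages were compared within each class by edgeR's quasi-likelihood test on the summed counts, with the processing label in the model and adjustment over all features of the class that were tested. Members passed the filter on low counts in 51 of the 90 combinations of member and class. CACNA1S passed in none, CACNA1F in cones and BCs only, and in rods and microglia a single member each was tested (CACNA1H and CACNA1A). Of the 51, 1 passed an adjusted p of 0.05 from infancy to the mature stage and 1 from infancy to the senile stage, where 0.892% and 1.3% of all features passed. Between the mature and the senile stage none passed with edgeR (6 had an unadjusted p under 0.05) and none with DESeq2. Of all features, 0.00371% passed there with edgeR and 0.431% with DESeq2. For counts at an unadjusted p under 0.05, here and below, the share of all features is not given, so they are not read as results.

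Both calls were CACNA1A in microglia, the resident immune cells of the retina. In infant retinas 1 to 5 its level was 107, 206, 118, 128 and 100.3 CPM. In mature retinas 1 to 4 it was 463, 389, 406 and 283 CPM, and Mature 5 had only 9 microglial nuclei and was left out. In senile retinas 1 to 5 it was 625, 406, 448, 598 and 356 CPM. Every mature and every senile value was thus above every infant value, while mature and senile values overlapped.

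The log2 fold change was 1.49 ± 0.25 (SE) from infancy to the mature stage (edgeR, adjusted p = 0.0218) and 1.88 ± 0.25 (SE) from infancy to the senile stage (edgeR, adjusted p = 0.00154). Of 1435 features tested in microglia, 0.139% and 0.348% passed in these contrasts. The senile change kept its call when any retina was left out (1.75 to 2.04), whereas the mature change, at 1.37 to 1.66, lost it without Infancy 1, 3, 4 or 5 or without Mature 1, 2 or 3. CACNA1A passed the filter on low counts, which asked for about 178 CPM in 4 retinas, through the stages where it was high: 4 of 4 mature and 5 of 5 senile retinas reached that level, but 1 of 5 infant retinas. Fitted without this filter, the senile change was 1.57 and kept its call (edgeR, adjusted p = 0.0168), and the mature change was 1.41 and lost it (edgeR, adjusted p = 0.128). Without Senile 3 the changes were 1.53 and 1.85 (edgeR, adjusted p = 0.0276 and 0.00452). Within the libraries of each processing label the changes were of like size, at 1.47 and 1.53 to the mature stage and 1.70 and 1.95 to the senile stage, but none passed with so few libraries (edgeR, adjusted p from 0.215 to 0.805).

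These values rest on 53 UMIs of CACNA1A in infant, 123 in mature and 117 in senile microglia. The markers of the 8 other classes, summed, ranged from 973 to 1430 CPM in infant microglia, from 1230 to 2050 in mature and from 809 to 2510 in senile microglia. The medians of these sums were 1310, 1320 and 1920 CPM. As a percent of the level in the class they mark, the median of Müller cell markers was 4.18 in infant, 6.05 in mature and 9.51 in senile microglia, that of cone markers 1.92, 3.33 and 4.43, and that of astrocyte markers 0.232, 1.02 and 1.27. RGC markers, those of the class with the most CACNA1A, had medians of 14.6, 17.3 and 17.7% and reached 52.7% in a senile retina. The medians of these 4 lists were thus ordered by stage in the same way as the means of CACNA1A. Those of AC markers (8.35, 5.1 and 9.75%), BC markers (1.63, 2.04 and 1.61%) and rod markers (0.32, 0.203 and 0.348%) were not. Of the 53 markers 7 had no UMI in microglia, and the summed HC markers had a median of 0 at every stage. Their part in the change was not tested. The level over all kept nuclei of the same retinas was 211 to 315 CPM in infancy, 141 to 285 in the mature and 190 to 235 in the senile stage, and microglia lay above it in 4 of 4 mature and 5 of 5 senile retinas and in 0 of 5 infant retinas.

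No such change was called in the other classes. In RGCs, which hold the highest levels, CACNA1A was at 557 ± 130 CPM in infant, 633 ± 147 in mature and 564 ± 88.0 in senile retinas (SD, n = 5 each). The change in microglia was set against that in 7 classes by exact permutation of the stage labels over differences within retinas. From infancy to the senile stage it exceeded the change in each of the 7, by 1.81 to 2.04 on the log2 scale (exact permutation, adjusted p = 0.0123 each, at the smallest p that 5 against 5 retinas allow). To the mature stage it exceeded the change in 6 classes by 1.06 to 1.94 (exact permutation, adjusted p from 0.0123 to 0.0171). Cones missed the threshold at 1.24 (adjusted p = 0.0556). The gene and the class were chosen for these tests because of their stage calls, and the tests read the same microglial values again, so they are not independent of each other and give no separate support for the change.

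**Figure D4:**
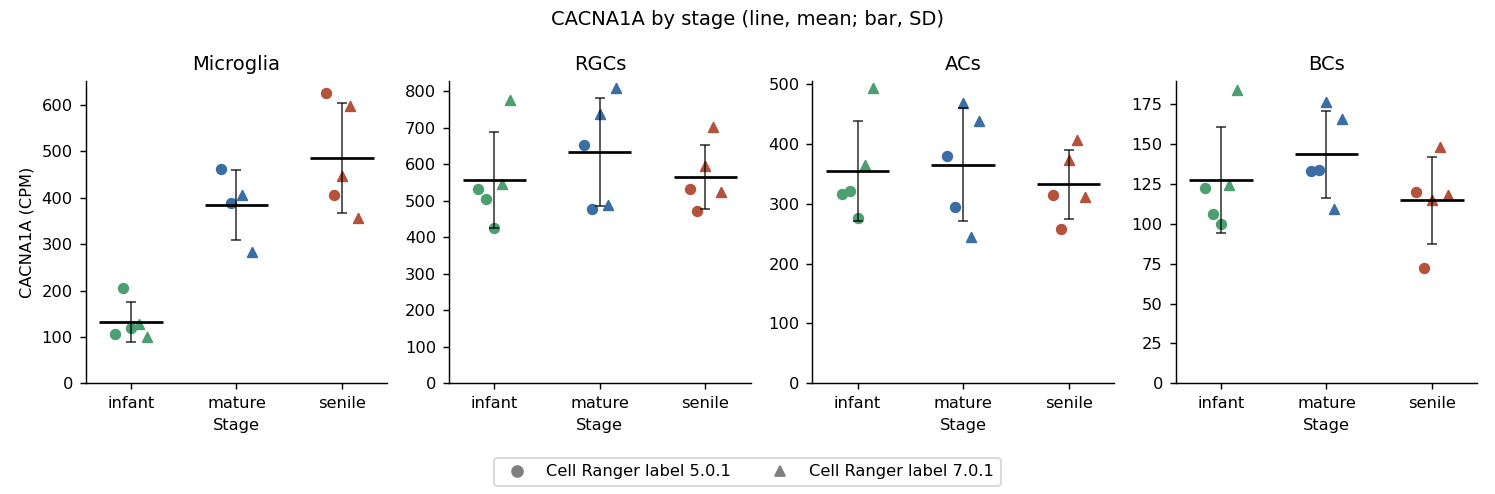
CACNA1A level (CPM) by stage in microglia, RGCs, ACs and BCs; points are retinas (circles, label 5.0.1; triangles, 7.0.1), lines are means and bars SD. In microglia the infant retinas (100.3 to 206 CPM) lie below all mature (283 to 463) and senile (356 to 625) retinas, whereas the stages overlap in the other 3 classes.

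CACNA1D came close to the threshold in cones, where it was at 329, 309, 294, 268 and 309 CPM in infant retinas 1 to 5, at 433, 410.3, 351, 365 and 391 CPM in mature retinas and at 380, 329, 389, 339 and 397 CPM in senile retinas, so that the mature retinas lay above all infant ones. The log2 fold change to the mature stage was 0.36 ± 0.09 (SE) and missed the threshold with edgeR (adjusted p = 0.0608). In RGCs the mature retinas (347 to 447 CPM) also lay above all infant ones (258 to 309 CPM), with 0.39 ± 0.10 (SE; edgeR, adjusted p = 0.133). ACs (592 to 676 CPM in infancy, 706 to 871 CPM mature) gave 0.28 ± 0.08 (SE; adjusted p = 0.152) and BCs, whose stages overlap, 0.29 ± 0.09 (SE; adjusted p = 0.156, edgeR). DESeq2 called all 4 of these changes (adjusted p = 0.00366 in cones, 0.0229 in RGCs, 0.0231 in ACs and 0.0256 in BCs). In this contrast DESeq2 called 1.99% of all features, against 0.892% with edgeR. The 4 classes come from the same retinas and do not count as separate replicates. Without Senile 2, or without the nuclei of most UMIs, edgeR called the change in cones as well (0.37 and 0.38; adjusted p = 0.0438 and 0.0484). No other edgeR alternative called it in cones, and none called it in RGCs, ACs or BCs. The share of all features called in those settings is not given.

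In cones CACNA1F was at 39.6, 42.3, 44.7, 58.2 and 70.3 CPM in infant retinas 1 to 5, at 66.0, 53.3, 65.5, 61.3 and 81.3 CPM in mature and at 52.0, 25.2, 57.3, 34.3 and 40.3 CPM in senile retinas. Most senile retinas lay below the mature ones, with some overlap. The senile minus mature log2 difference was -0.71 ± 0.18 (SE; edgeR, adjusted p = 0.287), and CACNA1Fli1 gave 0.17 ± 0.15 (SE; adjusted p = 0.738). In astrocytes CACNA1I had means of 73.7 ± 32.9, 118 ± 54.2 and 154 ± 52.7 CPM (SD, n = 5 each), with a senile minus infant difference of 1.16 ± 0.32 (SE; edgeR, adjusted p = 0.106). The senile retinas (114 to 245 CPM) lay above all infant ones (37.7 to 103 CPM). DESeq2 called this change (adjusted p = 0.0263), where it called 2.03% of all features. The highest senile value was that of Senile 3, which is labelled 7.0.1. The 7 other libraries of that label had 32 to 127 CPM of CACNA1I in astrocytes, and the 7 labelled 5.0.1 had 87.7 to 171 CPM. The change without Senile 3 is not given here.

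More members were called for the processing label than for any stage contrast. Of the 51 combinations 15 passed with edgeR, 2 higher and 13 lower in the libraries labelled 7.0.1, where 23% of all features passed, 11.4% higher and 11.6% lower. All 18 tests of the T-type genes CACNA1G, CACNA1H and CACNA1I had a negative sign, and 10 of them were called. These tests read the same genes in several classes of the same libraries and do not count as separate observations. The share of all features with a negative sign is not given. CACNA1G in ACs was at 179 ± 29.1 CPM in the 7 libraries labelled 5.0.1 and 73.1 ± 32.2 CPM in the 8 labelled 7.0.1 (SD), a log2 difference of -1.45 ± 0.20 (SE; edgeR, adjusted p = 0.00016). CACNA1H in BCs was at 765 ± 113 and 365 ± 169 CPM (SD), a difference of -1.13 ± 0.21 (SE; adjusted p = 0.00153), and CACNA1I in ACs at 131 ± 29.8 and 61.8 ± 28.9 CPM (SD), a difference of -1.26 ± 0.19 (SE; adjusted p = 0.000244, edgeR). In cones, CACNA1A (13.7 ± 3.81 and 29.1 ± 10.4 CPM, SD) and CACNA1C (23.9 ± 3.76 and 46.4 ± 12.7 CPM, SD) went up, by 1.03 ± 0.21 and 0.86 ± 0.17 (SE; edgeR, adjusted p = 0.00288 and 0.0026).

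Senile 3, which is labelled 7.0.1, had 149 CPM of CACNA1G in ACs and 757 CPM of CACNA1H in BCs. The 7 other libraries of that label had 51.1 to 79.1 and 232 to 423 CPM, and the 7 labelled 5.0.1 had 128 to 214 and 563 to 854 CPM. Its T-type levels in these classes thus lay within the range of the other label. Without it 24 combinations were called, where 27.4% of all features passed in that fit. The differences were then -1.64 for CACNA1G in ACs, -1.33 for CACNA1H in BCs and -1.42 for CACNA1I in ACs. The median UMIs per barcode were 1461 to 3068 in libraries labelled 5.0.1 and 2268 to 5611 in those labelled 7.0.1, and the sex given by the study nearly follows the label. Program version, depth, sex and any difference in library preparation cannot be told apart here.

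**Figure D5:**
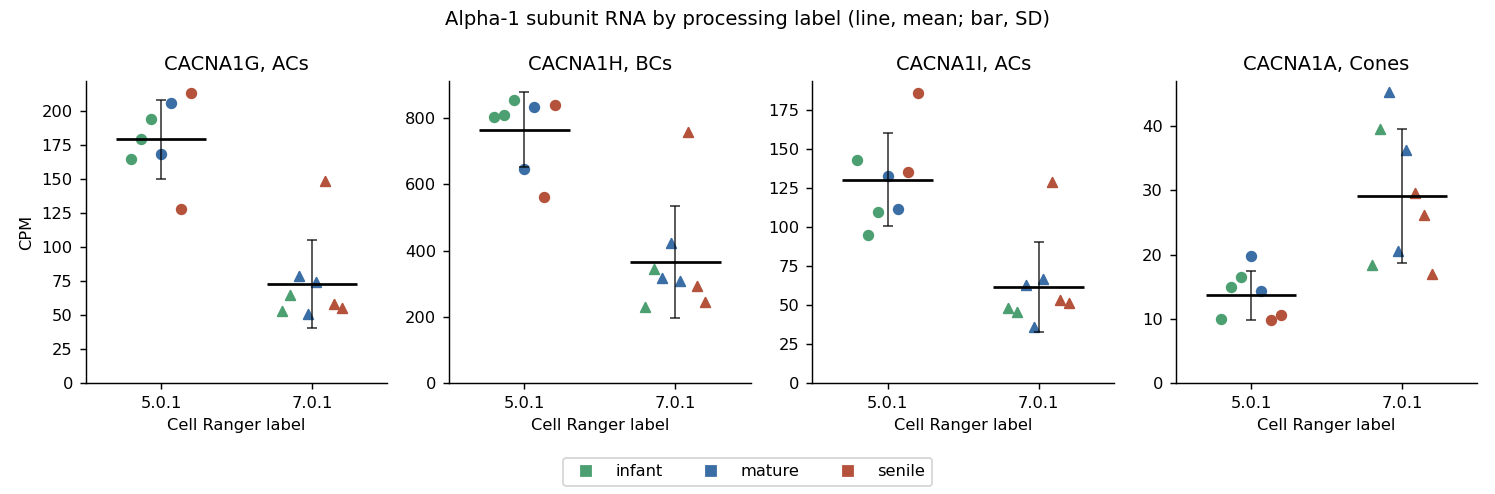
Level (CPM) of 3 T-type genes and of CACNA1A in libraries labelled Cell Ranger 5.0.1 (n = 7) and 7.0.1 (n = 8); points are retinas coloured by stage, lines are means and bars SD. For the T-type genes 1 senile retina labelled 7.0.1, Senile 3 (149 CPM of CACNA1G in ACs), lies among those labelled 5.0.1.

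Partner genes of the channels were read from the same fits. Of 16 auxiliary subunits 14 had UMIs and gave 69 tests, of which 1 passed from infancy to the mature stage, where 0.892% of all features passed. CACNA2D3, an alpha-2-delta subunit, was at 476 ± 88.3 CPM in infant and 701 ± 69.1 CPM in mature RGCs (SD, n = 5 each), a log2 fold change of 0.52 ± 0.12 (SE; edgeR, adjusted p = 0.047). With edgeR none passed from infancy to the senile stage, where 1.3% of all features passed (11 at an unadjusted p under 0.05, against 2 calls of DESeq2) or between the mature and the senile stage (10 and 1). DESeq2 called 2.03% and 0.431% of all features in these contrasts. The auxiliary subunit named for each class is the one with the largest mean CPM there, a choice for naming that does not rank genes, since CPM is not corrected for length. It was CACNA2D1 in cones (2533 ± 277 CPM), BCs (1325 ± 117 CPM), HCs, RGCs, Müller cells, astrocytes and microglia, the beta subunit CACNB4 in ACs (481 ± 68.7 CPM) and CACNB2, read from a numbered copy, in rods (1854 ± 249 CPM, SD).

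Presynaptic partners, 11 genes with UMIs of 12, gave 76 tests. None passed with edgeR from infancy to the mature (8 with an unadjusted p under 0.05) or the senile stage (11), or between the last stages (11). DESeq2 called 0, 1 and 0, where 1.99%, 2.03% and 0.431% of all features passed with it. With 0.892%, 1.3% and 0.00371% of all features called by edgeR in these contrasts, a list of 76 tests at those shares would hold few calls or none. Of the 21 genes of calcium stores, pumps, exchangers and sensors, 18 had UMIs and gave 105 tests. With edgeR 3 were higher from infancy to the mature stage and 2 to the senile stage (22 and 16 had an unadjusted p under 0.05). Of all features, 0.892% and 1.3% passed in either direction with edgeR. DESeq2 called 8 and 2, where 1.99% and 2.03% of all features passed with it. Between the mature and the senile stage edgeR called none (9 at an unadjusted p under 0.05) and DESeq2 called 1. All 5 edgeR calls were ITPR2, an inositol trisphosphate receptor that releases calcium from the endoplasmic reticulum. In cones it was at 14.1 ± 1.20 CPM in infant, 45.2 ± 25.4 in mature and 40.7 ± 17.7 CPM in senile retinas (SD, n = 5 each), with log2 fold changes of 1.67 ± 0.24 and 1.48 ± 0.24 (SE; edgeR, adjusted p = 0.000753 and 0.00191). Rods (1.81 and 2.74) and ACs (0.96, mature stage only) gave the other calls. In rods ITPR2 was at 10.9 to 53.5 CPM in infant and 101 to 236 CPM in senile retinas. It thus passed the filter on low counts in rods through the stages where it was high, and the rod calls are limited by that. The median log2 change of these lists from infancy to the mature stage was 0.07, 0.05 and 0.11 in the order given, and the median of all features was -0.0044.

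The genes with the most similar pattern over the 9 classes were taken by Pearson's r of the mean log2(CPM + 1), among 7846 features that reached 20 CPM in some class and were not numbered copies, antisense or LINC features. With so few classes many features come close, and the points share libraries and depth, so r is a description. CACNA1F lay nearest to RAB3IP, SMIM24 and LRIT3 (r = 0.99 each), LRIT3 being a protein of the photoreceptor to BC synapse. CACNA1C lay nearest to SH3GL3, PPP1R16B and DPF1 (r = 0.98), CACNA1D to SLC25A17, NUP85 and PPARGC1A (0.95 to 0.97), and CACNA1A to DPYSL2, SLC25A43 and ATXN7L1 (0.93 to 0.96). CACNA1B followed the adhesion molecule ADAM23 and a pair of unnamed features (0.98 to 0.99), and CACNA1E followed GMPR and PPARGC1A (0.99 and 0.97). Of the T-type genes, CACNA1G lay nearest to CNTN4, ADARB2 and HLF (0.96 to 0.97), CACNA1H to GABRA5, LRIT1 and PLXDC1 (0.95 to 0.96), and CACNA1I to LYST, NTN1 and DOK5 (0.95 to 0.96).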

How the data were processed

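Frozen retinas were profiled as nuclei on the 10x platform. The authors aligned reads to TS_3.0 with Cell Ranger (5.0.1 or 7.0.1 per the labels, 6.1.2 or 7.0.1 per the file headers, a single version in the methods), called barcodes and deposited raw UMI counts per feature and barcode; whether intronic reads were counted is not given in the sources used here.

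The study's limits on nuclei were applied (over 200 genes, below 6000 genes, mitochondrial share under 5%). Each nucleus was assigned by a negative binomial likelihood of marker genes (margin 3), and 8392 that scored better as a 1:1 mixture of classes were left out as possible doublets, with no other doublet caller; 23822 with too few markers and 13769 within the margin were also left out. The members and gene lists, and the thresholds of the assignment, were chosen with earlier results of these data known. The named partner genes are those called at an adjusted p of 0.05, at most 6 per list, and the auxiliary subunit with the largest mean CPM in each class; similar genes exclude numbered copies, antisense and LINC features, and some items are not reported here.

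Counts were summed per retina and class. Classes and subtypes were compared by 2-sided exact sign flips of log2(CPM + 1) differences (pseudocount 1), stages by edgeR 4.0.16 (TMM, filterByExpr, stage and processing label) and by DESeq2 1.42.0 as an alternative, with Benjamini-Hochberg adjustment over all features (for sign flips those with at least 387 UMIs, a choice made after the data were seen; the design had adjusted these over members alone); these ran in R 4.3.3, and the rest in Python 3.11.15 with scipy 1.17.1, numpy 2.4.6, matplotlib 3.10.9 and pandas 2.3.3. The edgeR and sign-flip procedures were tested on simulated data. By the study's account the retinas came from 15 animals, 5 per stage, so p-values measure the spread between animals. Departing from the design, ACs were split by cholinergic genes alone, since GAD1 had few UMIs, and HCs were not split, since only 3 retinas had 10 nuclei on both sides. Alternatives comprised normalization, filters, pseudocounts, covariates, gates, processing labels and each retina left out.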

Additional observations from a re-analysis of the deposited data

Results flagged for a closer look

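The change of CACNA1A with stage in microglia differed from that in other classes in 13 of 14 tests of the difference itself (exact permutation, adjusted p from 0.0123 to 0.0171); over cones, from infancy to the mature stage, the excess of 1.24 missed the threshold (adjusted p = 0.0556). The gene and class were chosen for these tests by their stage calls, and CACNA1A passed the filter on low counts in microglia through the mature and senile retinas, so the tests give no separate support for the change. From infancy to the senile stage the excess in microglia was 1.97 on the log2 scale over cones, 2.04 over BCs, 2.01 over HCs, 1.97 over ACs, 1.86 over RGCs, 1.92 over Müller cells and 1.81 over astrocytes. From infancy to the mature stage it was 1.44 over BCs, 1.92 over HCs, 1.61 over ACs, 1.48 over RGCs, 1.06 over Müller cells and 1.94 over astrocytes.

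In 147 groups of 4 or 5 retinas of a stage, for members and classes with a mean of at least 20 CPM, 10 retinas stood far from the others; chance alone flags about 1 in 20 groups. CACNA1A was at 39.5 CPM in cones of Infancy 5 (others 9.98 to 18.5) and at 206 CPM in microglia of Infancy 2 (others 100.3 to 128). CACNA1C was at 2553 CPM in HCs of Senile 3 (others 1505 to 1598) and at 186 CPM in Müller cells of Infancy 2 (others 84.3 to 92.4). CACNA1D was at 145 CPM in rods of Senile 4 (others 25.3 to 43.2) and at 871 CPM in ACs of Mature 1 (others 706 to 753). CACNA1F was at 64.6 CPM in rods of Mature 5 (others 17.9 to 23.3), and CACNA1G was at 443 CPM in HCs of Mature 2 (others 92.1 to 135). CACNA1H was at 37.5 CPM in microglia of Infancy 2 (others 0 to 8.55), which is 2 UMIs and under the 56.2 CPM that 3 UMIs would give, and at 244 CPM, or 6 UMIs, in those of Senile 2 (others 0 to 19.9). Its mean over microglia passed the limit of 20 CPM only through Senile 2.

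Nuclei assigned by vascular markers took part in no comparison. In the 6 retinas with at least 10 of them (93 nuclei), CACNA1C was at a mean of 870 ± 510 CPM (SD), from 59.9 to 1495 CPM, where 3 UMIs would give 54.0 to 237 CPM.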

How the results depend on the processing

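The count of class pairs that differed stayed between 231 and 280 over all alternatives (267 in the design, with adjustment over members alone, and 262 as reported, over all features), and no called pair changed its direction in any of them; among the leading steps, CACNA1I in astrocytes minus ACs turned to -0.022 on the log2 scale within the libraries labelled 5.0.1, uncalled there and as reported. The step of CACNA1G from BCs to HCs was called with TMM-scaled CPM, within label 7.0.1 and without Infancy 2 or Mature 2. That of CACNA1S from ACs to microglia lost its call in 4 of 24 alternatives. Subtype differences numbered 15 with adjustment over members alone (13 to 16 with a retina left out) and 12 over all features, where CACNA1F in cones and CACNA1E and CACNA1S in ACs were lost. The 14 tests of the CACNA1A stage change in microglia against other classes gave 13 calls, and 13 to 14 with a retina left out. Members called from infancy to the mature stage numbered 1 as reported, 5 with DESeq2, 2 without the nuclei of most UMIs, 0 without the low-count filter, 0 within either processing label and 0 to 2 with a retina left out (0 without Infancy 1, 3, 4 or 5 or Mature 1, 2 or 3, and 2 without Senile 2). In that contrast 0.892% of all features passed as reported, 1.99% with DESeq2 and 1.09% without the low-count filter. For settings named here without such a share, it is not given. From infancy to the senile stage the count was 1 as reported, 2 with DESeq2, 2 within label 5.0.1 (CACNA1C in BCs and CACNA1H in RGCs), 0 within label 7.0.1 and 1 with any retina left out. Of all features, 1.3% passed there as reported and 2.03% with DESeq2. Between the mature and senile stages the count was 2 without the low-count filter (CACNA1F in cones, CACNA1C in ACs), where 0.51% of all features passed, and 0 otherwise. The processing label called 15 members and classes (23% of all features) and 23 without the low-count filter (8.29% of all features). With a retina left out it called 12 to 24, 24 being without Senile 3 (27.4% of all features). The causes were not tested. Replicate numbers were not taken to pair the retinas, since not every pair of same-numbered retinas had a correlation over 0.1: deviations from stage means correlated at a median of 0.454 (-0.543 to 0.721; 13 of 15 stage pairs over 0.1) against -0.217 for different numbers, but with the processing label also removed at -0.225 (4 of 15) against 0.0847. With the replicate number as a block, members called were 0 to the mature stage (CACNA1A in microglia, edgeR adjusted p = 0.308), 1 to the senile stage (CACNA1A in microglia, 1.82, edgeR adjusted p = 0.00817) and 0 for the label, whose differences turned to 0.10 for CACNA1I in BCs, 0.043 for CACNA1E in ACs and 0.21 for CACNA1B in ACs; within the block the label rests on replicate 3 alone. Low totals limit microglia (24605 to 137920 UMIs per retina), rods and HCs.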
